A study of Mus musculus with 12 samples.

Results

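Mitochondria make most of a cell's ATP with 5 protein complexes of the inner membrane. Complex I takes electrons from NADH and complex II takes them from succinate, complexes III and IV pass them on to oxygen while pumping protons, and complex V, the ATP synthase, lets the protons flow back and makes ATP. Most subunits are encoded in the nucleus, made in the cytosol and imported, and a small set is encoded by the mitochondrial genome, so complexes I, III, IV and V need both sources. The genes described here are the nuclear-encoded subunits, chosen by gene name alone: the protein-coding Nduf, Sdh, Uqcr, Cox and Atp5 genes outside the mitochondrial chromosome. The rule found 83 genes, with 363 annotated transcripts, among the 53801 genes of the deposited table. Complex I accounts for 35 of them, complex II for 4, complex III for 8, complex IV for 20 and complex V for 16. Of the 83, 80 reached a mean of 1 FPKM (fragments per kilobase of transcript per 1000000 fragments) over all libraries and were tested. The other 3, Cox6b2, Cox8b and Cox8c, were too low.

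The libraries come from 12 tumours of LLC cells, a Lewis lung carcinoma line of C57BL/6 origin, grown in the flanks of female C57BL/6 mice of 6 to 8 weeks. The 4 groups had 3 libraries each: cisplatin (replicates 1, 2 and 3), brivanib (2, 3 and 5), the combination of both drugs (2, 3 and 4) and vehicle (2, 3 and 5). Cisplatin is a platinum drug that crosslinks DNA, and brivanib blocks the kinases of VEGF and FGF receptors. Drugs were given into the peritoneum in 100 µL, 2 times a week for 4 weeks, once the total tumour volume of a mouse had reached 100 mm3, with doses not given in the sources used here. Each flank of 6 mice per group was injected with LLC cells in Matrigel, which gave 10 to 12 tumours a group. The labels do not say which mouse each tumour came from, so 2 libraries of a group may share a mouse and the p-values may then rest on fewer animals than libraries. By its title, the series concerns brivanib, chemotherapy and antitumour immunity. Bulk tumour RNA mixes tumour and host cells, and a change in the number of cells of a type cannot be told apart from a change in RNA per cell.

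Depth was 17.161 M to 30.943 M recovered fragments per library (M for 1000000). Brivanib 5 stood apart in that 37.749% of its fragments lay in ribosomal-like features, against 0.268% to 0.656% in the other 11 libraries. Its FPKM values were scaled by a total of 21.021 M fragments, and its FPKM values summed to 921510.4, against 471827.7 to 527656.7 in the other 11 libraries. Brivanib 3 and brivanib 5 held the most skeletal muscle RNA. The 16 muscle markers summed to 352.7 FPKM in brivanib 3, 298.7 FPKM in brivanib 5 and 1.47 FPKM in brivanib 2. Their sums were 62.0 FPKM in combination 2, 28.4 FPKM in cisplatin 1 and 21.56 FPKM in cisplatin 3. Vehicle tumours had 1.84 to 2.56 FPKM, and cisplatin 2, combination 3 and combination 4 lay below every vehicle tumour. All 16 were above 0 in brivanib 3, brivanib 5 and combination 2. Cisplatin 1 and cisplatin 3 had 1 muscle marker at 0 each. In cisplatin 2, brivanib 2, combination 3, combination 4 and the vehicle tumours, 7 to 10 were at 0. The 12 adipocyte markers summed to 6.88 to 65.5 FPKM in cisplatin tumours, 41.6 to 311.8 FPKM in brivanib tumours, 93.2 to 312.7 FPKM in combination tumours and 12.7 to 13.8 FPKM in vehicle tumours. The 5 erythroid markers summed to 4.44 to 99.6 FPKM in cisplatin tumours, 448.7 to 2939 FPKM in brivanib tumours, 4.54 to 16.5 FPKM in combination tumours and 1607 to 3085 FPKM in vehicle tumours, and all 5 were called lower in cisplatin and in combination against vehicle. The part of host tissue in the results was not tested beyond the values given beside them. No marker list of LLC cells themselves was used.

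The promoters of this gene set give a first view of what the members share. RefSeq windows from 250 bases before to 50 bases after a transcription start on GRCm38.p6 were matched by symbol for 66 of the 83 genes. Members have a single window each, and the comparison is with every RefSeq window, not matched for expression or for windows per gene. A motif for NRF1, a transcription factor known for activating respiratory genes (GCGCA, any base, then GCGC, on either strand), was in the windows of 16 of 66 members (24.2%), against 4.6% of all 32851 windows. The ETS motif read by GABP, also called NRF2, another known activator of these genes (CCGGAAG, either strand), was in 15 members (22.7%), against 8.86% of all windows. The YY1 motif AAGATGG was in 9 members (13.6%), against 6.34%, and the Sp1 motif GGGCGG in 26 members (39.4%), against 35.7%. TATAAA was in 7 members (10.6%), against 13.6%, and the muscle-type E-box CAGCTG in 6 members (9.09%), against 16.3%. Of the 66 windows, 18 held none of the NRF1, ETS, YY1 and Sp1 letters. The median GC content was 57% in members and 52.7% in all windows.

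The windows of 4 members are shown. Cox8a and Cox8b encode the ubiquitous and the heart, muscle and brown fat forms of the same complex IV subunit, and Cox5b and Atp5e are members that passed the test in a comparison. Sequences run 5′ to 3′ on the strand of the gene, and capitals mark matches to the motifs above on either strand.
Cox8a, chr19:7217567-7217866, minus strand: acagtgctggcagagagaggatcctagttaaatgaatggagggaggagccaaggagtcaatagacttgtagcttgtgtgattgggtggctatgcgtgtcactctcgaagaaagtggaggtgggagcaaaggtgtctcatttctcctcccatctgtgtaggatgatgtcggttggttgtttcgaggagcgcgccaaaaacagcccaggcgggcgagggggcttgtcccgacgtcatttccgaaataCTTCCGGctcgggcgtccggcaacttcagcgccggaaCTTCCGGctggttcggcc
Cox8b, chr7:140900397-140900696, minus strand: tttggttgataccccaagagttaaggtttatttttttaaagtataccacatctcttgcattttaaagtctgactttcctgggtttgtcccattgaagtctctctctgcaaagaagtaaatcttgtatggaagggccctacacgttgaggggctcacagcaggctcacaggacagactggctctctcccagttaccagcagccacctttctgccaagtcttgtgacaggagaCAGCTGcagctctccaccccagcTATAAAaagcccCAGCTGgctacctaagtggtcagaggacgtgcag
Cox5b, chr1:36691237-36691536, plus strand: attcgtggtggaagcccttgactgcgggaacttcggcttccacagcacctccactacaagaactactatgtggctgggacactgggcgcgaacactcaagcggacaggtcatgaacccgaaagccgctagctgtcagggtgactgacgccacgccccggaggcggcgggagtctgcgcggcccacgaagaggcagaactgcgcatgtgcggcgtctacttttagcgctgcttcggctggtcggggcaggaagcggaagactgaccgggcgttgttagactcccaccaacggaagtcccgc
Atp5e, chr2:174464052-174464351, minus strand: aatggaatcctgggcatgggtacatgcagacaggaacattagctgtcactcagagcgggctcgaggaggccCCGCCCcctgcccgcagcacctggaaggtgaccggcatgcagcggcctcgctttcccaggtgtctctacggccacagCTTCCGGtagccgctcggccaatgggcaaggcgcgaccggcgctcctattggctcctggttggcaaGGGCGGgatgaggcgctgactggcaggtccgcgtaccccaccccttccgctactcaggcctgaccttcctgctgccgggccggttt
The Cox8a window held 2 ETS matches and no TATAAA, E-box, NRF1, YY1 or Sp1 letters. The Cox8b window held 1 TATAAA and 2 E-box matches and no NRF1, ETS, YY1 or Sp1 letters. The Atp5e window held 1 ETS match and 2 Sp1 matches. None of the motifs searched was in the Cox5b window. A match is a description of letters and not of binding.

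Respiratory chain mRNAs were abundant and steady in every tumour. The median member averaged 71.7 FPKM over the 12 libraries, against 12.2 FPKM for all 14246 genes tested, and 49 of the 80 lay among the 1425 tested genes with the highest level. Their coefficient of variation (the SD over the mean) across libraries had a median of 12.3%, against 17.7% for all genes tested. It was under 20% in 72 of 80 members and in 57.8% of all genes tested. The members were not compared with genes of a like level, so the part of their high level in this was not tested. Most members are short mRNAs, with a median leading transcript of 754 nt against 2364 nt over all genes tested. FPKM here divides by the full transcript length, which understates the level of short mRNAs. Members lie on 19 chromosomes, with at most 8 on any of them.

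The summed FPKM of all 83 genes was 7519, 8110 and 8164 in cisplatin 1, 2 and 3. It was 7879, 8623 and 7699 in brivanib 2, 3 and 5, and 7607, 7361 and 7153 in combination 2, 3 and 4. In vehicle 2, 3 and 5 it was 7240, 6933 and 7682. In FPKM as deposited, every brivanib library lay above every vehicle library, every cisplatin library lay above 2 of the 3 vehicle libraries, and combination libraries lay among the vehicle libraries. As a share of FPKM without ribosomal-like features, brivanib and vehicle overlapped. The shares were 1.51%, 1.76% and 1.49% in brivanib 2, 3 and 5 and 1.53%, 1.48% and 1.59% in vehicle 2, 3 and 5. The means were 7931 ± 358.1 FPKM in cisplatin tumours, 8067 ± 489.8 in brivanib tumours, 7374 ± 227.4 in combination tumours and 7285 ± 376.3 in vehicle tumours (SD, n = 3 each).

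**Figure D1:**
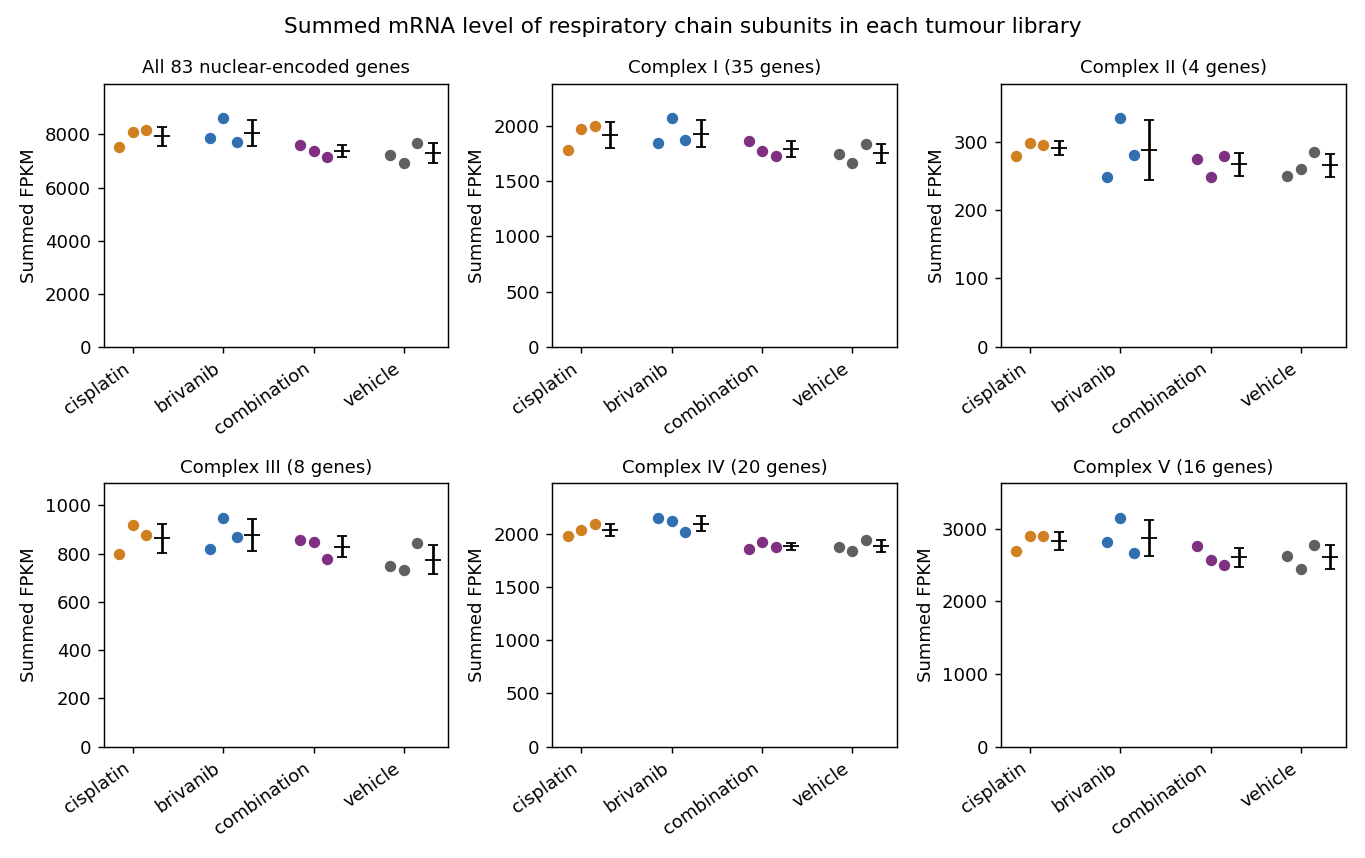
Summed FPKM of the nuclear-encoded subunit genes in each library, for all 83 genes and for each complex. Points are libraries, in the order cisplatin, brivanib, combination and vehicle, and the bar beside them is the group mean ± SD (n = 3). Each sum stays within a narrow range: all 83 genes together ran from 6933 to 8623 FPKM.

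Brivanib 3 had the highest value of all 12 libraries in 23 of the 80 tested members, against 11.6% of all genes tested. Vehicle 3 had the lowest value in 24 of the 80, against 11.2% of all genes tested.

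In complex I, Ndufb2, a small accessory subunit of the membrane arm, was the lowest member at a mean of 10.04 FPKM over all libraries. It averaged 9.10 ± 1.34 FPKM in cisplatin, 11.8 ± 4.95 in brivanib, 9.50 ± 0.974 in combination and 9.77 ± 2.29 in vehicle tumours (SD, n = 3 each). Ndufb2 did not pass the test in any comparison.

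Complex II has 4 nuclear-encoded subunits and no mitochondrial one. Sdha, the flavoprotein that oxidises succinate, had 96.5, 99.8 and 108.1 FPKM in cisplatin tumours and 82.6, 111.0 and 91.8 FPKM in brivanib 2, 3 and 5. It had 93.3, 78.9 and 96.0 FPKM in combination tumours and 86.8, 91.5 and 100.7 FPKM in vehicle tumours. Sdhb, the iron-sulfur subunit, averaged 81.7 ± 2.33 FPKM in cisplatin, 85.4 ± 17.5 in brivanib, 74.7 ± 9.05 in combination and 74.8 ± 8.22 in vehicle tumours (SD, n = 3 each). Its lowest and highest brivanib values were 68.3 FPKM in brivanib 2 and 103.2 FPKM in brivanib 3. The membrane anchors Sdhc and Sdhd averaged 40.6 and 63.1 FPKM over all libraries. All groups overlapped for Sdhb and Sdhc. For Sdha every combination library lay below every cisplatin library, with 96.0 FPKM in combination 4 beside 96.5 FPKM in cisplatin 1. Sdhd had 60.6, 73.5 and 63.0 FPKM in cisplatin tumours, 65.7, 66.3 and 61.1 FPKM in combination tumours and 56.6, 55.0 and 60.2 FPKM in vehicle tumours. Both of those drug groups lay above vehicle for Sdhd, but no Sdh gene passed the test in any comparison.

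In complex III, the highest member was Uqcr10, a small accessory subunit, at 165.7 FPKM over all libraries, and the lowest was Uqcr11, another small subunit, at 64.3 FPKM. In complex IV, Cox8a led at 414.4 FPKM, while Cox8c, a form known from testis, had no fragment in any library. In complex V, Atp5b, the catalytic beta subunit, led at 618.0 FPKM and ranked 99 of all tested genes, and Atp5s, a factor associated with the synthase rather than a structural subunit, was lowest at 5.14 FPKM.

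Against vehicle, cisplatin tumours showed small positive differences in most members and no member that passed the test. The test was limma on log2(FPKM + 1) across all 14246 genes with Benjamini-Hochberg adjustment and a threshold of 0.05. By it 0 of 80 members were called, against 0.19% of all genes tested (27 genes; 0.119% higher and 0.0702% lower). At an unadjusted p under 0.05, 8 members were higher, against 10.8% of all genes, and 2 lower, against 3.46%. The 8 were 4 without cisplatin 3 and 4 without vehicle 3. The median member log2 fold change was 0.12, against 0.07 over all genes tested, and 0.08 without vehicle 3. Under the other scalings and voom it was 0.03 to 0.05, with the median of all genes between -0.01 and 0.01. In 60 of 80 members the fold change was above 0, against 62% of all genes, and in 20 below 0, against 37.9%. The cisplatin libraries all lay above the vehicle libraries in 20 members, against 17% of all genes, and all below in 3, against 6.72%. Of the 20, 12 belong to complex I. Under both other scalings tried for this count, 10 members were higher, against 11.4% and 11.7% of all genes, and 4 lower, against 11.1% and 10.6%.

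The members with the smallest p in that comparison were Atp5l, Uqcr10 and Cox5b. Atp5l, subunit g of the ATP synthase membrane part, had 95.7, 101.8 and 108.5 FPKM in cisplatin tumours and 82.5, 81.7 and 81.6 FPKM in vehicle tumours. The groups did not overlap, and the log2 fold change was 0.31 ± 0.08 (SE; limma adjusted p = 0.128). Uqcr10 had 173.3, 193.2 and 192.6 FPKM in cisplatin tumours and 134.7, 119.0 and 154.8 FPKM in vehicle tumours, with a log2 fold change of 0.46 ± 0.12 (limma adjusted p = 0.132). Cox5b gave 0.37 ± 0.11 (limma adjusted p = 0.159). On the lower side were Uqcrh, the hinge subunit that meets cytochrome c, at -0.26 ± 0.10 (limma adjusted p = 0.248), Cox4i2 at -0.67 ± 0.26 (limma adjusted p = 0.262) and Cox7a2l, a factor that joins complexes III and IV in supercomplexes, at -0.35 ± 0.17 (limma adjusted p = 0.368). None of these differences passed the threshold.

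In brivanib tumours most members lay above vehicle by small amounts in FPKM as deposited, and 1 passed the test. In 72 of 80 members the log2 fold change against vehicle was above 0, against 48.3% of all genes tested, and in 8 below 0, against 51.7%, but 9 members were above 0 once every library was rescaled to one FPKM total, where the median of all genes moved to -0.33. The median member fold change was 0.14 on the log2 scale, against -0.01 over all genes, and under that rescaling it was -0.23. Relative to the median of all genes it was 0.15 as deposited and stayed between 0.07 and 0.18 under the 28 alternatives, all above 0. All 28 accessory subunits of complex I were above 0, with a median of 0.14, as were all 8 members of complex III and all 4 of complex II. Among the 7 core subunits of complex I 5 were above 0, with a median of 0.04. These counts are for FPKM as deposited. Without brivanib 3, 59 of 80 members were above 0 and the median was 0.10. With both muscle-rich libraries, brivanib 3 and brivanib 5, left out, 54 of 80 members were above 0 with a median of 0.07, and with the muscle score as a covariate 51 were, with a median of 0.09. Markers of other cells also differed in this comparison: 6 of 12 fibroblast markers and 2 of 12 macrophage markers were called higher. Fibroblast markers summed to 2322, 2150 and 1763 FPKM in brivanib 2, 3 and 5 and 1308, 782.7 and 1004 FPKM in vehicle tumours, and macrophage markers to 675.1, 856.7 and 896.7 FPKM in brivanib and 295.7, 435.0 and 249.8 FPKM in vehicle tumours. At most 2 markers of either list were at 0 in any library, and the part of these cells in the members' values was not tested.

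**Figure D2:**
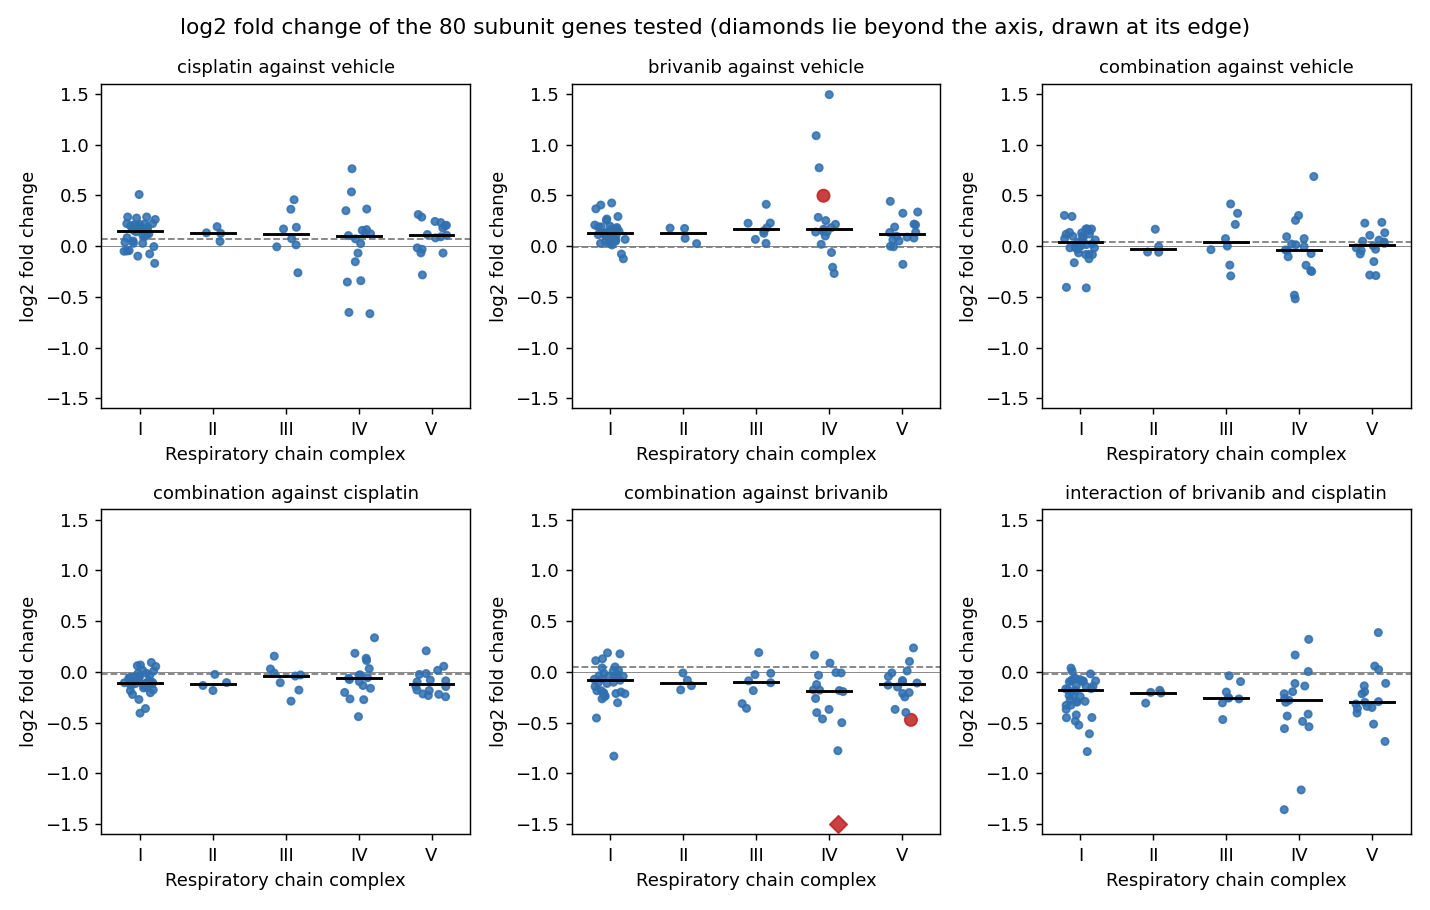
The log2 fold change of the 80 tested members in each comparison, by complex; each point is a gene, the black bar is the median of the complex, the dashed line is the median of all 14246 genes tested, and red marks members past an adjusted p of 0.05. In FPKM as deposited, 72 of 80 members lie above 0 in brivanib against vehicle and 66 of 80 below 0 in combination against brivanib, and both medians change sign when every library is rescaled to the same FPKM total.

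Only Cox5b passed the test in brivanib against vehicle, 1 of 80 members, against 1.81% of all genes tested (1.71% higher and 0.105% lower). Cox5b is a peripheral, zinc-binding subunit of complex IV. The gene (ENSMUSG00000061518) lies on the plus strand of chromosome 1 from 36691449 to 36693681. It had 160.4, 132.4 and 141.5 FPKM in brivanib 2, 3 and 5 and 104.3, 94.3 and 108.0 FPKM in vehicle 2, 3 and 5. Every brivanib library was above every vehicle library, with a log2 fold change of 0.50 ± 0.11 (SE; limma adjusted p = 0.0418). Cox5b had 133.8, 126.7 and 134.6 FPKM in cisplatin tumours and 127.9, 110.8 and 140.9 FPKM in combination tumours, which also lay above all vehicle libraries. The call ended in 21 of 28 alternatives, with log2 fold changes from 0.12 to 0.65. Without vehicle 3 the adjusted p was 0.175 and without brivanib 2 it was 0.102, and the call also ended without any 1 of cisplatin 1, 2 and 3, brivanib 5, combination 2, vehicle 2 and vehicle 5.

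How the fragments of Cox5b were shared between its transcripts bears on its FPKM. Its longest form, of 865 nt, held nearly all of the FPKM in 10 libraries, such as 137.0 of 141.5 FPKM in brivanib 5. Brivanib 2 and combination 4 differed, with 64.2 and 63.3 FPKM in the 865-nt form and 89.1 and 74.1 FPKM in a 625-nt form that had at most 1.27 FPKM in the other 10 libraries. The same fragment is worth more FPKM on a shorter transcript, so the same number of fragments gives a higher gene total in those 2 libraries. In fragments per 1000000 outside ribosomal-like features, Cox5b had 116.1, 117.6 and 132.6 in brivanib 2, 3 and 5 and 96.3, 88.5 and 98.3 in vehicle tumours. The groups were still apart on that scale, and limma voom on the fragments gave a log2 fold change of 0.37 (adjusted p = 0.0755).

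**Figure D3:**
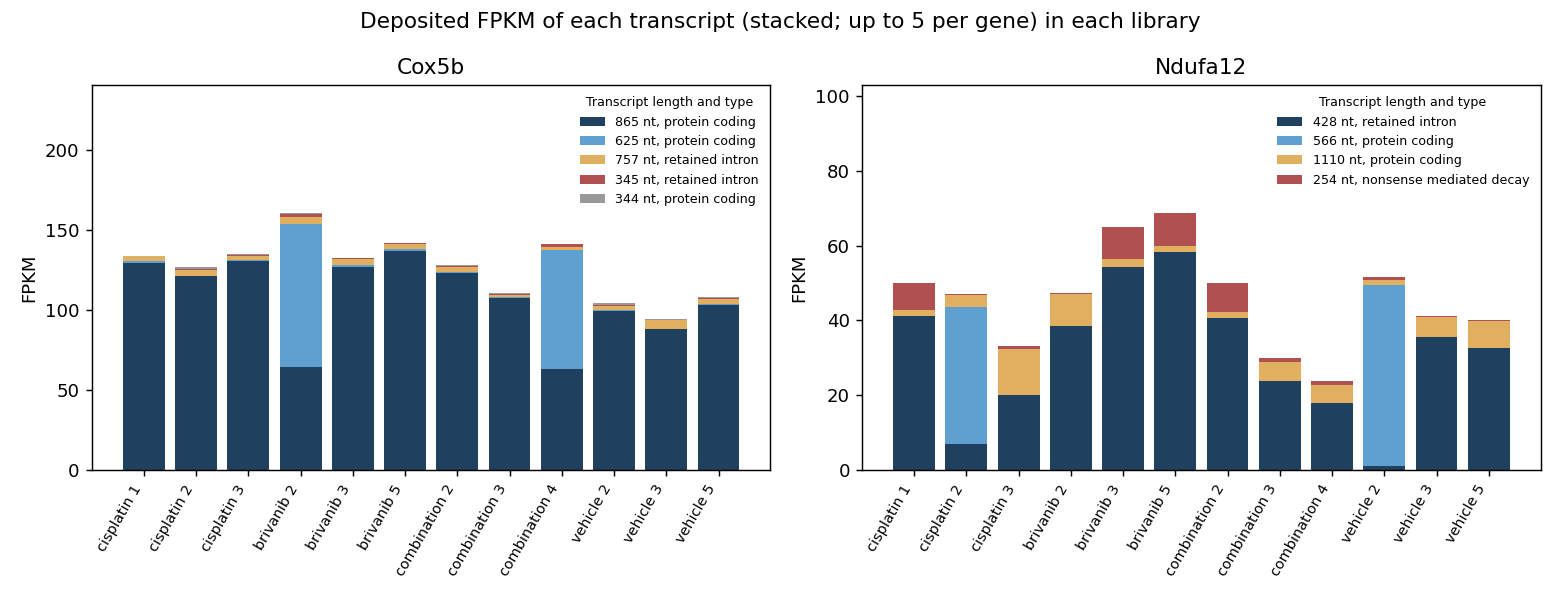
FPKM of the annotated transcripts of Cox5b and Ndufa12 in each library, stacked, for up to 5 transcripts a gene. The 625-nt Cox5b transcript holds 89.1 FPKM in brivanib 2 and 74.1 FPKM in combination 4 and little elsewhere, and the leading Ndufa12 transcript is a different one in cisplatin 2 and vehicle 2 than in the other 10 libraries.

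Other members with small p in brivanib against vehicle were Atp5l, at 96.9, 107.2 and 107.3 FPKM in brivanib 2, 3 and 5, and Atp5k, subunit e of the ATP synthase, at 99.2, 125.1 and 121.4 FPKM. Atp5k had 82.6, 71.2 and 101.6 FPKM in vehicle tumours and overlapped with them, while Atp5l did not. Their log2 fold changes were 0.34 ± 0.08 (limma adjusted p = 0.0712) and 0.44 ± 0.14 (limma adjusted p = 0.187). On the lower side the smallest p belonged to Ndufv1, the subunit that binds NADH, at -0.12 ± 0.09 (limma adjusted p = 0.651), Cox7a2l at -0.21 ± 0.17 (limma adjusted p = 0.695) and Atp5s at -0.18 ± 0.16 (limma adjusted p = 0.717). At an unadjusted p under 0.05, 13 members were higher, against 7.33% of all genes, and 0 lower, against 4.34%. The 13 were 5 without vehicle 3, 7 without brivanib 3 and 2 with every library at the same FPKM total. The 9 members with no overlap between brivanib and vehicle were all higher, against 8.95% of all genes, and 0 were lower, against 6.9%. It was 5 members, against 5.79%, with ribosomal-like features removed and equal totals, and 1, against 2.67%, with every library at the same FPKM total.

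Combination tumours gave fold changes against vehicle on both sides of 0 and no member that passed the test. None of the 80 was called, against 2.34% of all genes tested (333 genes; 1.82% higher and 0.519% lower). At an unadjusted p under 0.05, 3 members were higher, against 12.5% of all genes, and 3 lower, against 6.3%. With 1 library left out these ran from 1 (without vehicle 3) to 4 higher and from 1 (without vehicle 5) to 6 lower (without combination 2), with 5 lower without vehicle 2. The median log2 fold change of the members was 0.01, against 0.04 over all genes, and its sign changed under 4 other scalings and limma voom. In 43 of 80 members the fold change was above 0, against 56.6% of all genes, and in 37 below 0, against 43.3%. The groups did not overlap in 8 members that were higher, against 17.2% of all genes, and in 6 that were lower, against 9.35%; under both other scalings tried for this count it was 6 and 9. Uqcr10 had 179.4, 195.1 and 168.8 FPKM in combination tumours, all above the vehicle values, with a log2 fold change of 0.41 ± 0.12 (limma adjusted p = 0.0989). Cox5b gave 0.30 ± 0.11 (limma adjusted p = 0.162), and Ndufs4, an accessory subunit needed for stable complex I, gave 0.29 ± 0.12 (limma adjusted p = 0.203). On the lower side, Uqcrh had 103.3, 116.2 and 96.4 FPKM in combination tumours and 123.6, 122.3 and 141.8 FPKM in vehicle tumours. Its log2 fold change was -0.29 ± 0.10 (limma adjusted p = 0.135). Atp5g2, 1 of 3 genes for the same subunit c of the proton-driven ring, gave -0.29 ± 0.10 (limma adjusted p = 0.143), and Atp5e gave -0.29 ± 0.11 (limma adjusted p = 0.201).

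Combination tumours against cisplatin tumours showed lower values in most members, again by small amounts. In 64 of 80 members the log2 fold change was below 0, against 54.1% of all genes, and in 16 above 0, against 45.9%, with a median of -0.10 against -0.02. The median was -0.06 without cisplatin 3 and -0.13 without cisplatin 1, and 27 members were above 0 without combination 4. The groups did not overlap in 9 members, all lower in the combination, against 7.44% of all genes, and 0 were higher, against 4.94%. Of the 9, 5 belong to complex V: Atp5e, Atp5c1, Atp5l, Atp5k and Atp5g2. By limma 0 of 80 members were called, as were 0% of all genes tested. At an unadjusted p under 0.05, 0 members were higher, against 2.81% of all genes, and 2 lower, against 3.92%; with 1 library left out the lower count ran from 0 (without cisplatin 2, cisplatin 3 or any single vehicle library) to 7 (without cisplatin 1). The smallest p on the lower side belonged to Atp5g2 at -0.22 ± 0.10, Ndufs5 at -0.19 ± 0.08 and Atp5l at -0.18 ± 0.08 (limma adjusted p = 0.732, 0.737 and 0.740). On the higher side Atp5s, Cox7a1 and Ndufb3 gave 0.21 ± 0.16, 0.34 ± 0.28 and 0.09 ± 0.09 (limma adjusted p = 0.865, 0.881 and 0.904).

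Combination tumours against brivanib tumours showed lower values in most members, by small amounts, and 2 members passed the test as lower. In 66 of 80 members the log2 fold change was below 0, against 43.6% of all genes tested, and in 14 above 0, against 56.4%, but 66 were above 0 when every library was rescaled to the same FPKM total. The median was -0.11, against 0.04, and was 0.18 under that rescaling, where the median of all genes was 0.30. Without brivanib 3 the median was -0.05. In 19 members every combination library lay below every brivanib library, against 9.14% of all genes, and in 0 members above, against 14.1%. Complex IV held 9 of the 19, among 17 tested, and 6 of them are ubiquitous forms: Cox6b1, Cox6c, Cox7a2, Cox7b, Cox7c and Cox8a. After removal of ribosomal-like features and equal totals, 15 members did not overlap and were lower, 7 of them in complex IV, against 7.44% of all genes. With every library rescaled to the same FPKM total it was 1 member, against 2.21%. Without brivanib 3, 31 members rather than 14 were above 0, without combination 4 it was 23, and with brivanib 3 and brivanib 5 both left out 34 were.

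The size of these differences is given for 3 of the 6 ubiquitous complex IV forms without overlap. Cox8a, a small membrane subunit, averaged 402.1 ± 24.4 FPKM in combination tumours and 438.3 ± 13.5 FPKM in brivanib tumours. Cox6b1, on the intermembrane side of the complex, averaged 113.4 ± 11.2 FPKM in combination and 136.0 ± 6.94 FPKM in brivanib tumours. For Cox7a2, the ubiquitous form of subunit 7a, the means were 54.2 ± 10.2 FPKM in combination and 74.4 ± 4.73 FPKM in brivanib tumours (SD, n = 3 each). None of the 3 passed the test, and Cox7a2 had the smallest limma adjusted p among them, at 0.0879. Ubiquitous forms outside the 6 had log2 fold changes of -0.01 (Cox4i1), -0.01 (Ndufa4), 0.09 (Cox5a), -0.18 (Cox6a1) and -0.195 (Cox5b).

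The test called 2 of 80 members lower, against 1.85% of all genes called lower, and 0 higher, against 2.02% (3.87% in either direction). At an unadjusted p under 0.05, 15 members were lower, against 8.7% of all genes, and 0 higher, against 13%. Without brivanib 3 these were 10 and 3, and without combination 4 they were 9 and 1. They were 1 and 0 with every library at the same FPKM total. With ribosomal-like features removed they were 12 and 0, and with median-of-ratios scaling 23 and 0. In the same comparison 7 of 12 fibroblast markers and all 5 erythroid markers were called lower, and the part of these cells was not tested. The 2 members called were Atp5e and Ndufa4l2. Atp5e (ENSMUSG00000016252, chromosome 2, minus strand, 174461072 to 174464105) encodes epsilon, the smallest subunit of the F1 stalk. It had 117.1, 120.1 and 108.9 FPKM in combination 2, 3 and 4 and 178.2, 171.1 and 135.3 FPKM in brivanib 2, 3 and 5. The groups did not overlap, although brivanib 5 lay near the vehicle values of 132.6, 146.0 and 143.9 FPKM. Its log2 fold change was -0.47 ± 0.11 (SE; limma adjusted p = 0.0423). In fragments per 1000000 outside ribosomal-like features it had 52.2, 53.5 and 50.1 in combination tumours and 77.9, 76.4 and 65.2 in brivanib tumours, with no overlap. The call ended in 16 of 28 alternatives, among them those without brivanib 2 (limma adjusted p = 0.086), brivanib 3 (0.0786), any single combination library (0.0901 to 0.104), cisplatin 2, cisplatin 3 or any single vehicle library (0.0507 to 0.0614).

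Ndufa4l2 (ENSMUSG00000040280, chromosome 10, plus strand, 127514967 to 127517154) encodes a relative of the complex IV subunit Ndufa4 and is a known target of the hypoxia factor HIF-1, reported to lower respiratory activity when induced. It had 2.75, 1.30 and 3.39 FPKM in combination 2, 3 and 4 and 26.4, 5.48 and 13.0 FPKM in brivanib 2, 3 and 5. These rest on 56, 28 and 57 fragments in combination tumours and 529, 104 and 256 in brivanib tumours. Cisplatin tumours had 3.51, 2.80 and 0.678 FPKM and vehicle tumours 2.82, 4.53 and 4.29 FPKM. All brivanib libraries lay above all 9 others, with a wide spread among them. The log2 fold change of combination against brivanib was -2.01 ± 0.49 (limma adjusted p = 0.0430), and the call ended in 17 of 28 alternatives, with the change between -3.03 and -1.28. Left out singly, brivanib 2 gave an adjusted p of 0.0920, brivanib 5 gave 0.117 and combination 3 gave 0.153, and the call also ended without combination 2, combination 4, cisplatin 2 or any single vehicle library. Against vehicle the brivanib log2 fold change was 1.49, and it did not pass the test.

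**Figure D4:**
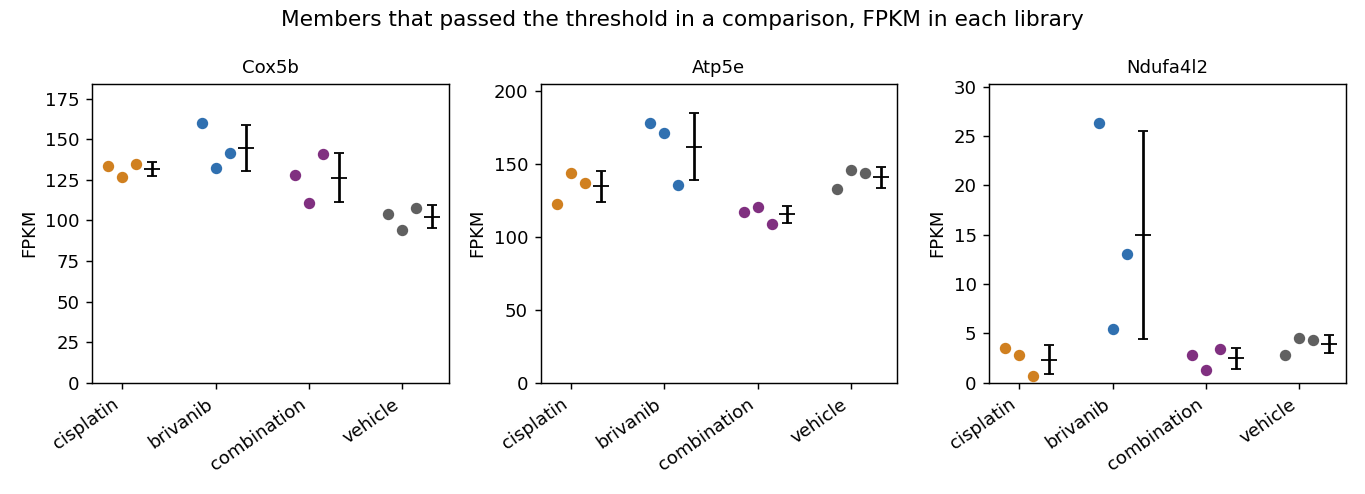
FPKM of Cox5b, Atp5e and Ndufa4l2 in each library, with the group mean ± SD (n = 3) beside the points. Brivanib lies above vehicle for Cox5b, combination lies below brivanib for Atp5e, and Ndufa4l2 is high in brivanib tumours with values from 5.48 to 26.4 FPKM.

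A pair of gene lists gives context for Ndufa4l2. The mean log2(FPKM + 1) of 14 glycolytic and other HIF targets was 5.14, 4.91 and 4.73 in combination 2, 3 and 4, 6.28, 4.58 and 5.63 in brivanib 2, 3 and 5, and 4.99, 5.38 and 5.47 in vehicle tumours. It was 4.915, 4.87 and 4.38 in cisplatin 1, 2 and 3. Brivanib 2 and brivanib 5 lay above every vehicle library and brivanib 3 below every one. In brivanib against vehicle 12 of the 14 targets were above 0 and 2 below, against 48.3% and 51.7% of all genes. In combination against brivanib 12 were below 0 and 2 above, against 43.6% and 56.4%. Of the 14, 0 were called in any of the 6 comparisons, against 0% to 3.87% of all genes. Ndufa4l2 is also known from pericytes. The 12 pericyte and smooth muscle markers averaged 1.73, 1.38 and 1.40 on that scale in combination tumours, 2.35, 2.61 and 2.12 in brivanib tumours and 1.595, 1.77 and 1.77 in vehicle tumours, with at most 1 marker at 0 in any library. Of the 9 tested, 4 (Rgs5, Pdgfrb, Acta2 and Tagln) were called lower in combination against brivanib, against 1.85% of all genes. In brivanib against vehicle 2 were called higher, against 1.71% of all genes: Acta2 and Tagln, at log2 fold changes of 2.38 and 2.55. The rest were not called there. Rgs5, Abcc9, Kcnj8 and Higd1b were at 0.06, 0.01, -0.19 and -0.14, and Pdgfrb, Notch3 and Des at 0.36, 0.25 and 1.63. The part of either list in the Ndufa4l2 values was not tested. Ndufa4 itself, a complex IV subunit, averaged 113.7 ± 14.2 FPKM in cisplatin, 99.2 ± 10.2 in brivanib, 98.2 ± 6.22 in combination and 103.8 ± 11.8 in vehicle tumours. Ndufa4l2 made up 20.4%, 4.87% and 12.9% of the FPKM of the pair in brivanib 2, 3 and 5 and 0.534% to 4.16% in the other 9 libraries.

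Near the threshold, Atp5g2 had 156.9, 164.0 and 159.7 FPKM in combination tumours and 240.7, 199.3 and 185.7 FPKM in brivanib tumours, with a log2 fold change of -0.37 ± 0.10 (limma adjusted p = 0.0623). It was called in 4 of the alternatives, including limma voom. The 3 subunit c genes make the same mature protein. Atp5g2 made up 33.7%, 34.8% and 38.4% of their summed FPKM in combination tumours, 49.7%, 37.1% and 42.0% in brivanib tumours, 35.3% to 42.8% in cisplatin tumours and 40.4% to 45.95% in vehicle tumours. Atp5g1 and Atp5g3 averaged 78.1 ± 14.5 and 212.7 ± 27.1 FPKM in combination tumours and 67.2 ± 18.3 and 212.2 ± 36.6 FPKM in brivanib tumours. Uqcrh, with a log2 fold change of -0.36 ± 0.10 (limma adjusted p = 0.0648), was called in 3 alternatives of this comparison. Among members on the higher side the smallest p belonged to Ndufv1 at 0.18 ± 0.09 (limma adjusted p = 0.288), Ndufs4 at 0.19 ± 0.12 (0.380) and Uqcr10 at 0.19 ± 0.12 (0.403).

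Ndufa12, an accessory subunit, had the lowest log2 fold change of complex I in this comparison. It had 50.1, 30.0 and 23.9 FPKM in combination tumours and 47.3, 64.9 and 68.7 FPKM in brivanib tumours, with a log2 fold change of -0.83 ± 0.25 (limma adjusted p = 0.0856). It was called when combination 2 was left out. Its leading transcript was a 428-nt retained-intron form in 10 libraries, and a 566-nt protein-coding form in cisplatin 2 and vehicle 2, at 36.6 and 48.6 FPKM. Of 75 members above 5 FPKM in every library, 64 had the same leading transcript in all 12 libraries and 11 had more than 1. Cox5b and Ndufa12 are among those 11, and gene totals of such members depend on how fragments were divided.

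For the interaction of the drugs (the combination's difference from brivanib, minus cisplatin's difference from vehicle), 72 of 80 members were below 0, against 52.7% of all genes, and 8 above 0, against 47.3%. The median was -0.24, against -0.02, and 0.12 when every library was rescaled to the same FPKM total. Relative to the median of all genes it stayed between -0.27 and -0.14 under the 27 alternatives that could be fitted. No member passed the test, against 0.14% of all genes (20 genes). At an unadjusted p under 0.05, 14 members were lower, against 6.66% of all genes, and 0 higher, against 3.36%. The 14 were 6 without cisplatin 2, 7 without vehicle 3, 8 without brivanib 3 and 9 without cisplatin 3 or combination 4. They were 13 with median-of-ratios scaling, 8 with limma voom and 5 with quantile normalization or with ribosomal-like features removed. With every library at the same FPKM total they were 0. The median was -0.16 without brivanib 3. The members above 0 were 4 without cisplatin 1, 5 without brivanib 5 and 12 without brivanib 3 or vehicle 3. They were 15 with the muscle score and 18 with quantile normalization. With every library at the same FPKM total 61 members were above 0, against 82.1% of all genes. The smallest p values belonged to Atp5l at -0.52 ± 0.12 (limma adjusted p = 0.122), Ndufs5 at -0.45 ± 0.12 (0.188) and Cox5b at -0.56 ± 0.15 (0.205). On the higher side were Atp5s at 0.39 ± 0.22 (limma adjusted p = 0.611), Cox7a2l at 0.32 ± 0.24 (0.716) and Cox4i2 at 0.17 ± 0.36 (0.913). Ndufs5, an accessory subunit of complex I, shows the pattern of values: 48.4, 52.1 and 55.2 FPKM in cisplatin tumours, 52.6, 54.6 and 54.7 FPKM in brivanib tumours, 46.1, 42.1 and 48.4 FPKM in combination tumours and 45.4, 45.3 and 43.5 FPKM in vehicle tumours. Each drug alone lay above vehicle, and the combination overlapped with it. These comparisons share libraries, so the counts of one are not independent of those of another.

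Several complex IV subunits have forms used in particular tissues. Cox6a2, Cox7a1 and Cox8b are the heart and muscle forms of Cox6a1, Cox7a2 and Cox8a, and Cox7a1 and Cox8b are also used in brown fat. Cox8b had 9.69 FPKM in brivanib 3, from 78 fragments, and 0.259 FPKM in cisplatin 1, from 2 fragments. No fragment was counted in the other 10 libraries, and counting error alone leaves room for up to 3 fragments in each. Of 6 brown fat markers, Ucp1, the uncoupling protein of brown fat, and Cidea had 6.40 and 7.07 FPKM in brivanib 3 and were at 0 in the other 11 libraries. The other 4 were each under 0.7 FPKM in every library. Zic1 and Otop1 were highest in brivanib 3, at 0.255 and 0.213 FPKM, but were also above 0 in other libraries. Elovl3 was lowest in brivanib 3 at 0.12 FPKM, and Adrb3, at 0.432 FPKM in brivanib 3, was higher in combination 2 and combination 4.

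Cox6a2 had 3.42 FPKM in brivanib 3, 3.08 in brivanib 5 and 2.63 in combination 2, the 3 libraries with the highest muscle scores, and 0.408 FPKM in brivanib 2. It had 1.10 to 1.65 FPKM in cisplatin tumours and at most 0.766 FPKM in vehicle tumours. The brivanib log2 fold change was 1.09 ± 0.44 (limma adjusted p = 0.347). Cox7a1 had 2.92, 3.53 and 2.52 FPKM in brivanib 2, 3 and 5, above all vehicle values, which ran from 1.146 to 1.46 FPKM, with a log2 fold change of 0.77 ± 0.28 (limma adjusted p = 0.277). Unlike Cox6a2, it was high in brivanib 2, where 10 of 16 muscle markers were at 0. The ubiquitous forms dominated throughout: Cox6a2 made up at most 1.45% of Cox6a2 and Cox6a1 together, Cox7a1 at most 4.86% of its pair and Cox8b at most 2.18% of its pair.

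Cox7b2, a form of subunit 7b known from testis, was present in every tumour. It had 11.5, 10.8 and 12.9 FPKM in cisplatin tumours and 6.66, 10.7 and 8.25 FPKM in brivanib 2, 3 and 5. It had 11.8, 12.2 and 5.94 FPKM in combination tumours and 9.95, 8.39 and 13.2 FPKM in vehicle tumours, from 58 to 152 fragments a library. The groups overlapped. Cox7b2 made up 7.36% to 12.8% of the FPKM of Cox7b2 and Cox7b. None of 6 spermatogenic markers exceeded 0.649 FPKM in any library, and 3 to 6 of them were at 0 in each. Cox6b2, another testis form, had at most 8 fragments in a library and none in 8 of 12, and Cox8c had none. Cox4i2, the lung and hypoxia form of subunit 4, had 0.255 to 2.47 FPKM and at most 1.35% of the sum with Cox4i1. Cox4i1 itself was uneven within groups, at 305.4, 289.0 and 362.5 FPKM in cisplatin, 313.2, 231.5 and 178.3 in brivanib, 191.8, 210.3 and 315.6 in combination and 319.0, 172.7 and 190.6 in vehicle tumours.

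**Figure D5:**
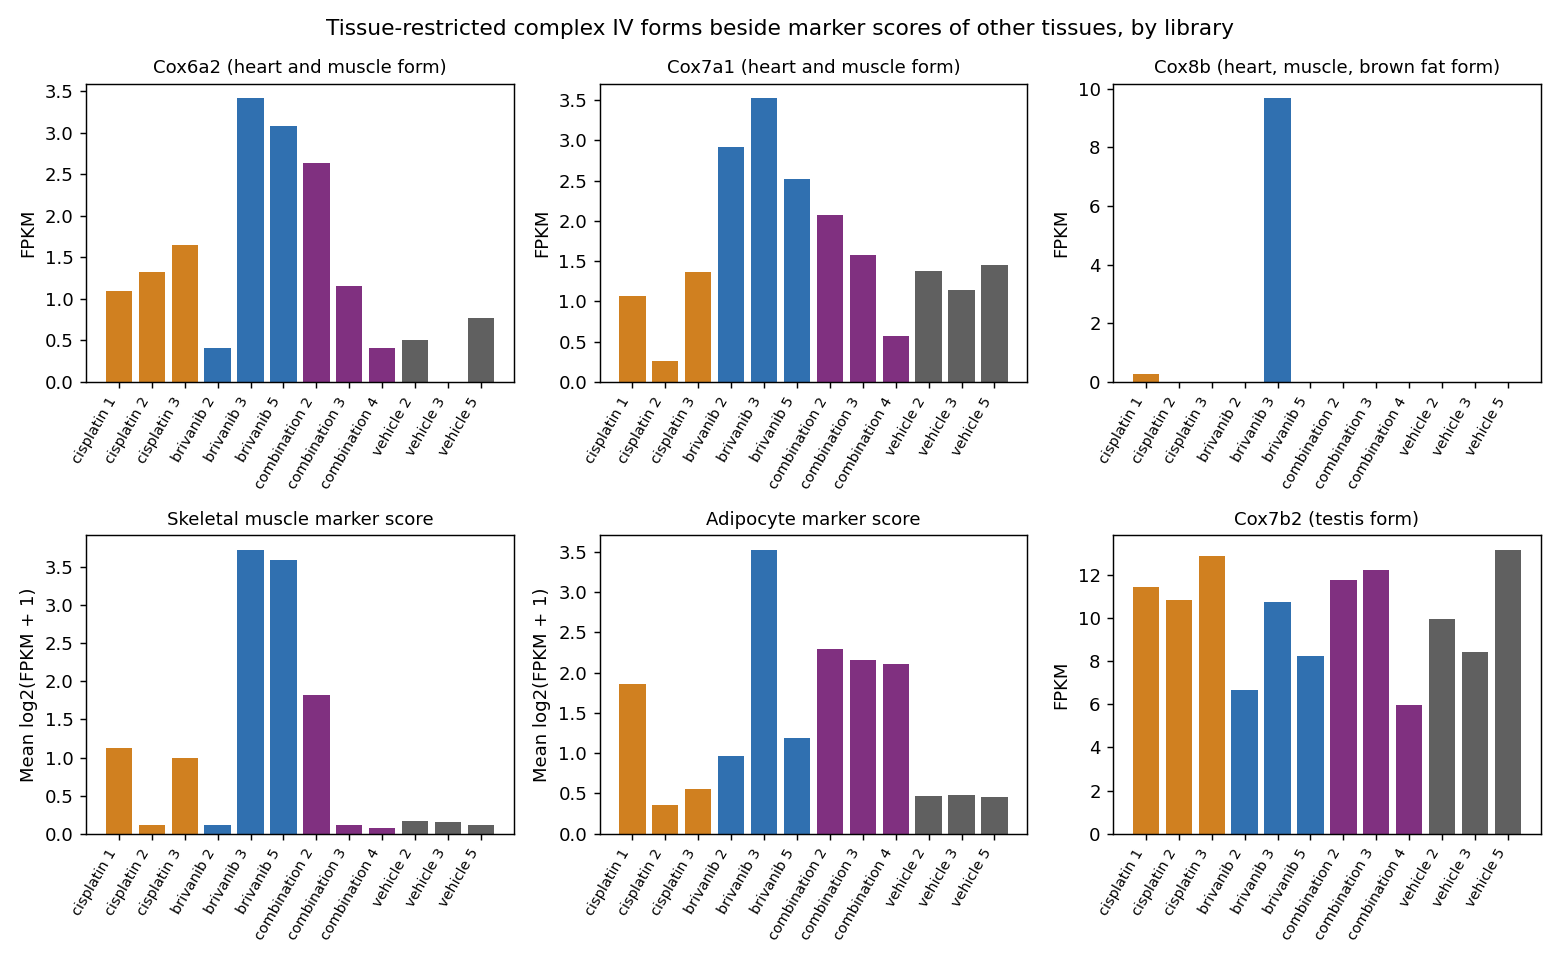
FPKM of tissue-restricted complex IV forms and the mean log2(FPKM + 1) of the skeletal muscle and adipocyte markers, as a bar for each library. Cox8b stands out in brivanib 3 alone, Cox6a2 is highest in the libraries with the highest muscle scores (brivanib 3, brivanib 5 and combination 2), and Cox7b2 is present in all 12 libraries.

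Assembly factors were called at about the share of all genes. There were 53 tested assembly factors, which build the complexes without staying in them. In the 5 comparisons other than combination against brivanib 0 were called, against 0% to 2.34% of all genes. In brivanib against vehicle 28 of 53 were above 0, against 48.3% of all genes, with a median of 0.02 in log2 fold change. In combination against brivanib 1 was called higher, against 2.02% of all genes, and 1 lower, against 1.85%. Sdhaf2, which loads flavin onto Sdha, had 24.64, 27.99 and 24.71 FPKM in combination tumours and 18.2, 19.3 and 14.9 FPKM in brivanib tumours, a log2 fold change of 0.54 ± 0.13 (limma adjusted p = 0.0377). Dmac1, a factor of the distal membrane arm of complex I, had 16.3, 13.5 and 17.1 FPKM in combination tumours and 24.0, 23.8 and 20.9 FPKM in brivanib tumours, a log2 fold change of -0.53 ± 0.13 (limma adjusted p = 0.0442). Both calls ended in most alternatives, 16 and 20 of 28. Among 14 tested regulators of mitochondrial biogenesis, such as the NRF1 and PGC-1 factors, 0 were called in any of the 6 comparisons. The shares over all genes were 0% to 3.87%.

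The mitochondrial genome encodes 13 subunits of complexes I, III, IV and V. Their summed FPKM was 35790 ± 1774 in cisplatin tumours, 26300 ± 4577 in brivanib tumours, 40600 ± 4641 in combination tumours and 28460 ± 1644 in vehicle tumours (SD, n = 3 each). In combination against brivanib all 13 were above 0 in log2 fold change, against 56.4% of all genes, with a median of 0.69. There mt-Nd1, mt-Nd5 and mt-Nd6 passed the test as higher, against 2.02% of all genes, at 1.02 ± 0.22, 1.13 ± 0.19 and 1.27 ± 0.22 (limma adjusted p = 0.0271, 0.0122 and 0.0141). These calls ended in 6, 4 and 4 of 28 alternatives. All 13 were also above 0 in cisplatin against vehicle, against 62% of all genes, and in combination against vehicle, against 56.6%. The medians were 0.40 and 0.50. In cisplatin 1 was called higher (mt-Nd5), against 0.119%, and in combination the same 3 genes were, against 1.82%. In brivanib against vehicle 2 of 13 were above 0 and 0 were called. The difference between nuclear and mitochondrial genes was not tested.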

How the data were processed

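RNA of 12 LLC flank tumours was extracted with Trizol or RNeasy, per the labels' protocols, and sequenced on BGISEQ-500, per the series' design text. The authors deposited FPKM values per transcript; Bowtie2, RSEM and build mm10 are named in the design text, and the submitters' processing notes list HISAT, Bowtie, Bowtie2 2.2.5, RSEM 1.2.12 and build mm9. The table's coordinates for 363 member transcripts were compared with GENCODE M21 on GRCm38: all 363 were found and 350 had identical coordinates. 1 column of values matched no sample and was not used, and 3 broken lines were dropped. FPKM multiplied by transcript length came in whole steps of 1 fragment (100% of values up to 100 fragments within 0.01), which gave fragment counts and depth. No count test is the main result.

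Transcript FPKM were summed by gene. The 14246 genes with a mean of at least 1 FPKM were tested on log2(FPKM + 1) with limma 3.58.1 in R 4.3.3, with 4 group means over all 12 libraries, a trended prior and Benjamini-Hochberg adjustment at 0.05 over all genes, in 6 comparisons. Fold changes on that scale understate the change of low genes. The fit was tested on simulated data. Ribosomal-like features were rRNA genes and 3 gene models that carry ribosomal RNA. Motifs were searched by exact letters; where a gene had several RefSeq windows, the one nearest the start of its leading transcript was taken. Named members are those past the threshold, the 3 with the smallest p in each direction of each comparison, the highest and lowest of each complex, the isoform groups and the Sdh genes (1 gene that this rule names is not reported here); Cox6c, Cox7c, Atp5c1 and Ndufa12 were also named after their values were seen, and leaving out brivanib 3 and brivanib 5 together was an alternative chosen after seeing the data. Members and gene lists were chosen with earlier results of these data known. Replicate numbers are not said to link tumours: libraries with the same number had deviations from their group means that correlated at -0.157 to 0.213 over 13 pairs.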

Additional observations from a re-analysis of the deposited data

How the results depend on the processing

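Depth limits the members under about 5 FPKM, such as Cox6a2, Cox7a1 and Cox8b, whose values rest on few fragments, and groups of 3 leave calls near the threshold. Against 1 member called in brivanib against vehicle, 0 were called with no filter, with genes of at least 5 FPKM, with every library at the same FPKM total, with quantile normalization, with ribosomal-like features removed, with limma voom, with the comparison's groups alone, with the muscle score, the adipocyte score or both as covariates, and with brivanib 3 and brivanib 5 both left out; leaving out 1 library gave 0 to 1. Against 2 called in combination against brivanib, 0 were called with no filter, with those groups alone and with both scores, 1 with a pseudocount of 0.1, with genes of at least 5 FPKM, with equal FPKM totals, with the adipocyte score and with protein_coding transcripts only, 3 with voom, with ribosomal-like features removed, with the muscle score and without brivanib 3 and brivanib 5, and 4 with median-of-ratios scaling; leaving out 1 library gave 0 to 2. In combination against vehicle 1 was called (Uqcrh) with quantile normalization. The other 3 counts were 0 under all alternatives run. With the replicate number as a block, a replicate block of libraries that share only a number, 0 members were called in both comparisons that had calls; of 6 brivanib and vehicle libraries, 1 correlated best with its own number.

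With every library at the same FPKM total, which scales down brivanib 5, the members' median log2 fold change was -0.23 in brivanib against vehicle, 0.18 in combination against brivanib and 0.12 in the interaction, and Atp5l in brivanib against vehicle was -0.0351. The median in combination against vehicle, 0.01, was -0.057 with equal totals, -0.038 with median-of-ratios, -0.046 with quantile normalization, -0.063 with ribosomal-like features removed, -0.065 with voom, -0.032 with the adipocyte score and -0.012 with both scores, and leaving out 1 library gave -0.016 (combination 2) to 0.058. Cox7a2l in brivanib against vehicle was 0.0313 without brivanib 3 and brivanib 5. Cox4i2 in the interaction was -0.0249 with the muscle score, -0.18 with the replicate block and -0.0295 without brivanib 3 and brivanib 5, and leaving out 1 library gave -0.13 (cisplatin 1) to 0.38. Where brivanib 3 and brivanib 5 are left out, the lone brivanib library is assumed to vary like the other groups. The interaction could not be fitted from the groups of 1 comparison. The cause of these shifts was not tested.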
